A study of Homo sapiens with 4 samples.

Results

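The 10 genes described here encode early-response transcription factors and regulators: EGR1, EGR2 and EGR3; SRF, the serum response factor; IER2, IER3 and IER5; and NR4A1, NR4A2 and NR4A3. They were chosen by symbol from the 64252 Ensembl gene rows of the count table. Where a symbol had several rows the one with the highest mean count was to be used, but each symbol had 1 row. Of the 10, 8 had enough reads to be among the 18775 genes tested, and EGR2 and EGR3 did not. The RNA came from SK-N-BE(2), a human neuroblastoma cell line in which MYCN is amplified, in 2 groups of 2 libraries. The shCDK5RAP3 group carried a short hairpin RNA against CDK5RAP3, a protein that partners the UFM1 ligase at the endoplasmic reticulum, and the shControl group carried a control hairpin. The labels give neither the number nor the sequences of the hairpins, no drug or stimulus, and no word on clones or pools. They also do not say that replicates came from separate cultures, so p-values measure the spread between these libraries, which may be technical.

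The libraries held 28653689 and 30138393 counts in shCDK5RAP3 cells, against 28721740 and 28755837 counts in shControl cells. CDK5RAP3 itself had 1669 and 1689 counts in shCDK5RAP3 cells, against 2529 and 2866 counts in shControl cells, so it stood at 62.1% of control (log2 fold change -0.69 ± 0.08 SE, edgeR adjusted p = 0.000163). It shares 1860 exon bases with AC018521.1 on the same strand and 285 with AC018521.4 on the other. Its level is uncertain to that extent. Mitochondrial transcripts, whose part in the results was not tested, took 6.33% and 6.34% of the counts in shCDK5RAP3 libraries, against 6.84% and 6.57% in shControl libraries. Markers of noradrenergic neuroblastoma were present in every library, with summed levels of 4703 and 4850 CPM (read counts scaled to library size) in shCDK5RAP3 cells, against 7786 and 8321 CPM in shControl cells. Of these 10 markers 9 fell, or 90.0%, beside 21.8% of all tested genes. The falls were led by CHGA (-2.27), CHGB (-1.91) and DBH (-1.48). GATA3 (-0.11), named after its value was seen, did not pass.

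Early-response genes are transcribed within minutes of a stimulus, without new protein synthesis. SRF binds CArG boxes in many of their promoters, either with ELK cofactors that are phosphorylated by the kinase ERK or with MRTF cofactors that are released when actin polymerises. CREB, which binds the cAMP response element (CRE), is a second route to the EGR and NR4A genes. EGR1, EGR2 and EGR3 are zinc-finger factors, and the NR4A proteins are orphan nuclear receptors whose activity is set largely by how much of them is made. In neurons these genes follow electrical activity and growth factors.

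The promoter windows of 5 members are shown because they hold, or lack, the letters that SRF and CREB are known to bind. Windows of 300 bases, from 250 before to 50 after a transcription start, came from RefSeq (GRCh38.p14) and were matched for 7 members, in 11 windows. They are written 5′ to 3′ on the strand of the gene, with CArG boxes and CRE half-sites in capitals. The windows lie at chr5:138465229-138465528 (EGR1, plus strand), chr6:43171019-43171318 (SRF, plus strand), chr10:62816317-62816616 (EGR2, minus strand), chr9:99821635-99821934 (NR4A3, plus strand) and chr19:13150161-13150460 (IER2, plus strand).
EGR1: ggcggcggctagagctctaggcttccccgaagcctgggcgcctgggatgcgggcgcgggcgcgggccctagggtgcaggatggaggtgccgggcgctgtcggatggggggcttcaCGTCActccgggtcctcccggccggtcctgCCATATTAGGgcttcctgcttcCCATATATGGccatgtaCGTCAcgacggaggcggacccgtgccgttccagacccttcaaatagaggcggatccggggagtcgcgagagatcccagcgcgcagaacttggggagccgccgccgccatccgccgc
SRF: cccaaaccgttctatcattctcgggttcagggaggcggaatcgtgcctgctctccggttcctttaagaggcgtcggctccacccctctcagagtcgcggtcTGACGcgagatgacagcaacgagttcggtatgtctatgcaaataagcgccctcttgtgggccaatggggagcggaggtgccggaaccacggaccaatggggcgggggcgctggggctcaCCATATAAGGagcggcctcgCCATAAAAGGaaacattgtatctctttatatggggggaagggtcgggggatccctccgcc
EGR2: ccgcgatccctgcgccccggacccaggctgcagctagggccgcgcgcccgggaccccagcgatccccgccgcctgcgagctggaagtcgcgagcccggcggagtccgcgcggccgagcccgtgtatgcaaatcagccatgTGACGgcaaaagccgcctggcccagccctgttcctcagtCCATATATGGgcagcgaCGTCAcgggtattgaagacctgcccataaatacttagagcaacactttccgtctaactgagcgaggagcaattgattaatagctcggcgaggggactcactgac
NR4A3: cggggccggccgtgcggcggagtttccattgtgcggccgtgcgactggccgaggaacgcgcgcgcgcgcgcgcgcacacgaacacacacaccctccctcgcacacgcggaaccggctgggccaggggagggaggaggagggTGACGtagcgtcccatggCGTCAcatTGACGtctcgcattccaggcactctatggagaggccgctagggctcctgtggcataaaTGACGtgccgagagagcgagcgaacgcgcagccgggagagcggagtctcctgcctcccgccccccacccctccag
IER2: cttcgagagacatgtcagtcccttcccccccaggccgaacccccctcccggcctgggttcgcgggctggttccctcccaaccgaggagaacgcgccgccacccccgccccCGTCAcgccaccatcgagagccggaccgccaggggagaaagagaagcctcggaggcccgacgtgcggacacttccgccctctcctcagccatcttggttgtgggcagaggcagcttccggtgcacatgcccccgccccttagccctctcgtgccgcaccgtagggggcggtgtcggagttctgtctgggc

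CArG boxes were found in 3 of the 11 windows, 1 each of EGR1, EGR2 and SRF, whereas 1.29% of all 35116 promoter windows of this length hold one. EGR1 had 1 at -105 to -96 and 1 at -83 to -74 from the start, SRF had 1 at -30 to -21 and 1 at -10 to -1, and EGR2 had 1 at -71 to -62. The CRE half-site TGACG, read on both strands, was in 5 of the 11 windows (1 each of EGR1, EGR2, IER2, SRF and NR4A3), and in 24.6% of all windows. NR4A3 carried 4 of the 10 half-sites, all between -109 and -21. The full site TGACGTCA, which contains the half-site, was in none of the members' windows and in 1.85% of all windows. The EGR site GCGNGGGCG was in 3 of the 11 windows (1 each of EGR1, EGR2 and SRF) and in 9.43% of all windows, and the NR4A site AAAGGTCA was in none and in 1.22% of all windows. The IER5 window and the 2 NR4A1 windows, chr12:52022582-52022881 and chr12:52037465-52037764, held none of these letters. Any other start of NR4A1, a gene that runs to 52059507, had no window and was not searched. A match shows letters and not binding, and sites farther than 250 bases from the start were not searched.

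**Figure D1:**
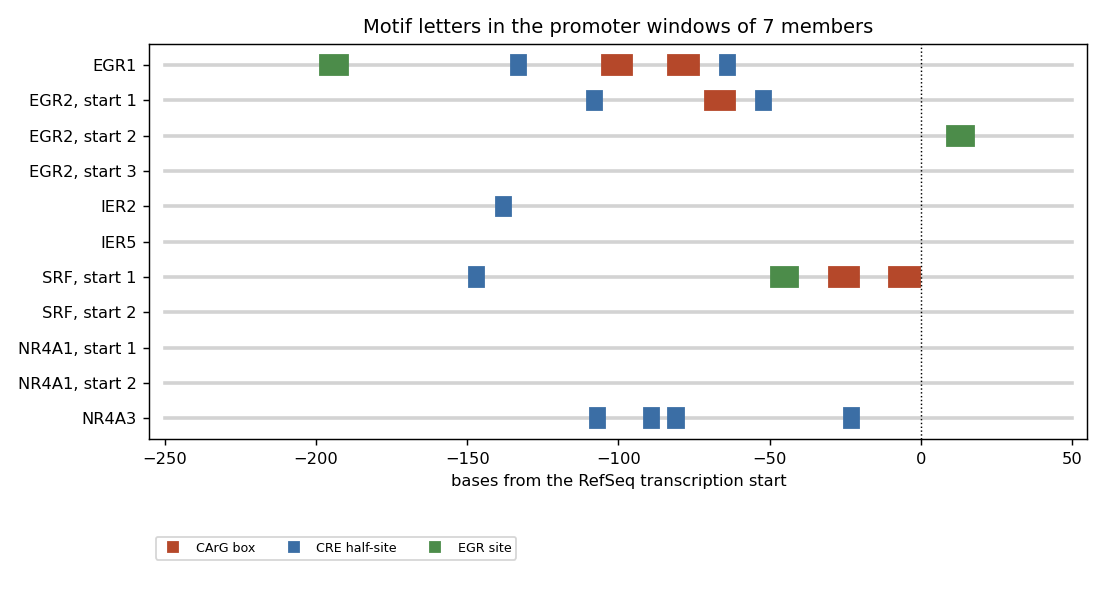
Positions of CArG boxes, CRE half-sites and EGR sites in the 11 promoter windows of 7 members, in bases from the RefSeq transcription start (dotted line), 1 grey line per window. EGR1 and SRF each have 2 CArG boxes upstream of the start, and NR4A3 has 4 CRE half-sites and no CArG box.

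In shCDK5RAP3 cells 5 of the 8 tested members rose: NR4A3, EGR1, IER2, NR4A1 and SRF, by 2.15-fold to 1.29-fold. None fell by edgeR's quasi-likelihood test, none had an unadjusted p under 0.05 in that direction, and DESeq2 and limma-trend also called none lower. IER3, IER5 and NR4A2 did not pass. With CDK5RAP3 mRNA lowered, expression differed widely between the groups: 41.5% of all tested genes were called, 19.7% higher and 21.8% lower (edgeR adjusted p under 0.05). Against that background 62.5% of the tested members were called higher. The members and the gene lists were chosen with earlier results of these data known. Their shares beside all tested genes are therefore a description and not a test. Both shCDK5RAP3 libraries lay above both shControl libraries for 7 members, as they did for 35.0% of all tested genes; the groups lay apart in either direction for 71.4% of all tested genes. The median log2 fold change was 0.49 over the 8 members and 0.00 (-0.003) over all tested genes. Summed over the 10 members, the level was 339.5 and 342 CPM in shCDK5RAP3 cells, against 229 and 243 CPM in shControl cells. IER2 alone gave 159.6 and 168 CPM of this in shCDK5RAP3 cells, against 97.4 and 110 CPM in shControl cells. In bulk RNA, a change in the number of cells of a type and a change in RNA per cell cannot be told apart.

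**Figure D2:**
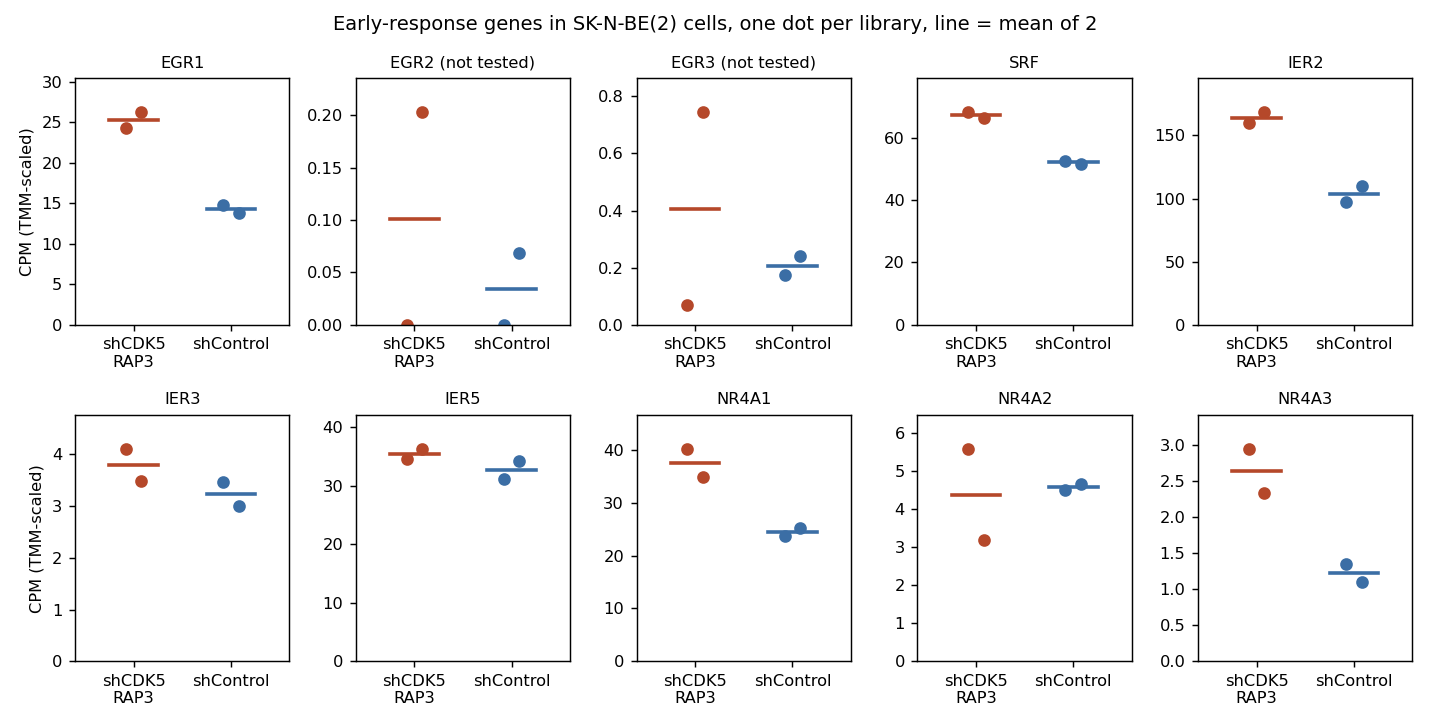
Level of each of the 10 members in CPM (vertical axes, each from 0), with shCDK5RAP3 libraries on the left and shControl libraries on the right, 1 dot per library and a line at the mean of 2. The groups stand apart for EGR1, SRF, IER2, NR4A1 and NR4A3, lie close together for IER3 and IER5, and overlap for NR4A2, EGR2 and EGR3.

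EGR1 is the best known of the EGR factors and binds GC-rich sites of growth and synaptic genes. EGR1 (ENSG00000120738; GRCh38 chromosome 5, 138465490 to 138469315) had 694 and 775 counts in shCDK5RAP3 cells, against 429 and 400 counts in shControl cells. Its level was 25.3 ± 1.34 CPM in shCDK5RAP3 cells and 14.3 ± 0.757 CPM in shControl cells (SD, n = 2 each). Both shCDK5RAP3 libraries lay well above both shControl libraries, and the difference between groups exceeded the gap between the replicates of either. It rose 1.77-fold (log2 fold change 0.82 ± 0.11 SE, edgeR adjusted p = 0.000409).

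EGR2 and EGR3, which share the zinc fingers of EGR1 and act in myelination and muscle spindle development, were at the limit of detection. EGR2 had 0 and 6 counts in shCDK5RAP3 cells, against 0 and 2 counts in shControl cells. A count of 0 at this depth allows up to 3 counts, or 0.105 CPM in shCDK5RAP3 replicate 1, a floor that covers counting error only. EGR2 thus had a CArG box beside a start but almost no reads. EGR3 had 2 and 22 counts in shCDK5RAP3 cells, against 5 and 7 counts in shControl cells. The groups overlapped, since the highest and the lowest library were both shCDK5RAP3 replicates. The exact Poisson 95% intervals of these replicates, 0.242 to 7.22 for the count of 2 and 13.8 to 33.3 for the count of 22, did not meet. No difference was detectable for either gene at this depth.

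SRF is both an early-response gene and the factor that drives others. SRF (ENSG00000112658; chromosome 6, 43171299 to 43181507) had 1948 and 1969 counts in shCDK5RAP3 cells, against 1526 and 1500 counts in shControl cells. This was 67.4 ± 1.18 CPM in shCDK5RAP3 cells and 52.2 ± 0.815 CPM in shControl cells (SD, n = 2 each). SRF had the smallest rise of the members that passed, 1.29-fold, and the tightest replicates, which differed by 1.03-fold or less within a group. Its log2 fold change was 0.37 ± 0.07 SE (edgeR adjusted p = 0.00266).

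The 3 IER genes are named for their immediate early response and are not a protein family: IER2 and IER5 are related nuclear proteins, and IER3 is a regulator of survival and ERK signalling. IER2 (ENSG00000160888; chromosome 19, 13150415 to 13154908) was the most abundant member, with 4556 and 4980 counts in shCDK5RAP3 cells, against 2817 and 3187 counts in shControl cells. It averaged 164 ± 6.19 CPM in shCDK5RAP3 cells and 103 ± 8.66 CPM in shControl cells (SD, n = 2 each), so the groups lay far apart. It rose 1.58-fold (log2 fold change 0.66 ± 0.08 SE, edgeR adjusted p = 0.000167).

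IER5, which has been linked to the heat-shock factor HSF1, differed little. It had 988 and 1072 counts in shCDK5RAP3 cells, against 900 and 992 counts in shControl cells, or 35.4 ± 1.15 CPM in shCDK5RAP3 cells and 32.6 ± 2.13 CPM in shControl cells (SD, n = 2 each). The lowest shCDK5RAP3 library, at 34.6 CPM, was just above the highest shControl library, at 34.1 CPM. The log2 fold change of 0.12 ± 0.09 SE did not pass (edgeR adjusted p = 0.331).

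IER3 had 117 and 103 counts in shCDK5RAP3 cells, against 100 and 87 counts in shControl cells. In CPM the nearest libraries of the groups, 3.48 for shCDK5RAP3 and 3.46 for shControl, were almost level. The log2 fold change was 0.23 ± 0.22 SE (edgeR adjusted p = 0.434). IER3 shares 359 exon bases with IER3-AS1 on the other strand, which had 0 and 4 counts in shCDK5RAP3 cells, against 0 and 1 counts in shControl cells. Whether the counting used strand is not stated, so IER3 is uncertain to that extent. IER2 and NR4A1 overlap antisense genes too, AC011446.2 and AC025259.3, each with 0 counts in all 4 libraries.

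Of the 3 NR4A receptors, NR4A1 and NR4A3 passed the test and NR4A2 did not. NR4A1 (Nur77; ENSG00000123358; chromosome 12, 52022832 to 52059507), a factor in cell death and in growth signalling, had 1145 and 1030 counts in shCDK5RAP3 cells, against 684 and 733 counts in shControl cells. This was 37.5 ± 3.74 CPM in shCDK5RAP3 cells and 24.4 ± 1.11 CPM in shControl cells (SD, n = 2 each). The lower shCDK5RAP3 library, at 34.8 CPM, was still well above the higher shControl library, at 25.2 CPM. NR4A1 rose 1.53-fold (log2 fold change 0.62 ± 0.10 SE, edgeR adjusted p = 0.00135).

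NR4A3 (NOR-1; ENSG00000119508; chromosome 9, 99821855 to 99866891) was scarce and had the largest fold change of the members. It had 84 and 69 counts in shCDK5RAP3 cells, against 39 and 32 counts in shControl cells. The level was 2.64 ± 0.431 CPM in shCDK5RAP3 cells and 1.22 ± 0.175 CPM in shControl cells (SD, n = 2 each), with no overlap. It rose 2.15-fold (log2 fold change 1.10 ± 0.29 SE, edgeR adjusted p = 0.0138). This call was lost without shCDK5RAP3 replicate 1 (log2 fold change 0.94, edgeR adjusted p = 0.0924), without shCDK5RAP3 replicate 2 (1.26, edgeR adjusted p = 0.0519) and without a filter on low counts (1.09, edgeR adjusted p = 0.0627). The other 4 calls held in every fit listed in the closing section.

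NR4A2 (Nurr1), a maintenance factor of dopamine neurons, had 159 and 94 counts in shCDK5RAP3 cells, against 130 and 135 counts in shControl cells. The shCDK5RAP3 replicates lay on either side of the shControl pair, 1.75-fold apart, while the shControl replicates were 1.03-fold apart. Their exact Poisson 95% intervals, 135 to 186 and 76.0 to 115 counts, did not meet. The log2 fold change was -0.06 ± 0.27 SE (edgeR adjusted p = 0.87), and leaving out shCDK5RAP3 replicate 1 or 2 in turn made it -0.51 or 0.28. Within a library the log2 ratio of NR4A1 to NR4A2 was 2.85 and 3.45 in shCDK5RAP3 cells, against 2.40 and 2.44 in shControl cells. The difference of 0.73 had an exact two-sided permutation p of 0.333, which is the smallest that 2 libraries against 2 can give.

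**Figure D3:**
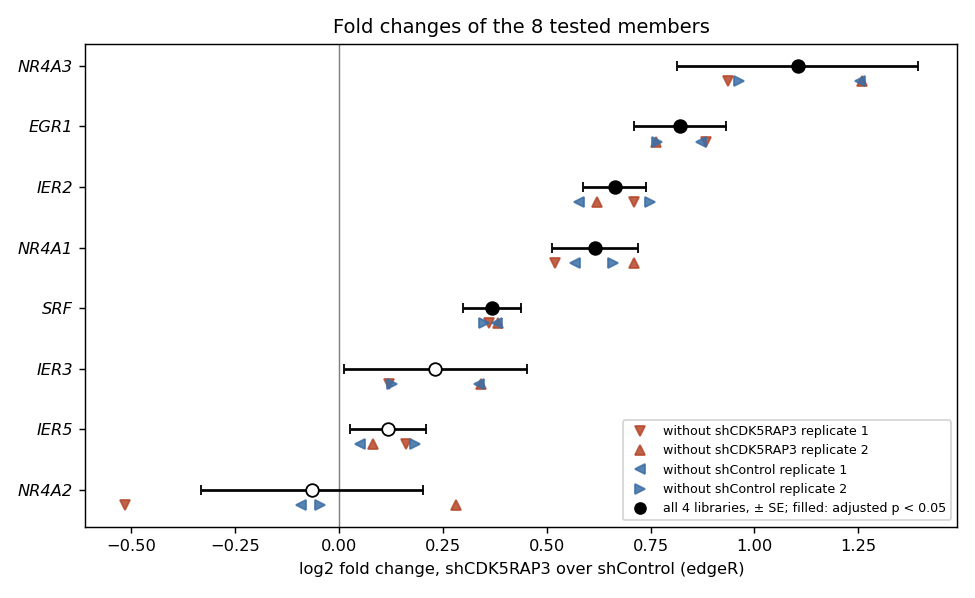
Log2 fold change of the 8 tested members, shCDK5RAP3 over shControl, from edgeR with all 4 libraries (circles, ± 1 SE; filled where the adjusted p is under 0.05) and with each library left out (triangles). All members shown but NR4A2 stay to the right of 0 in each, IER3 and IER5 with open circles. NR4A2 lies at -0.51 or 0.28 according to which shCDK5RAP3 library is left out.

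Scaled by exon length (TPM, from GENCODE 29 exons), the members spanned a wide range of levels in the same order in both groups. In shCDK5RAP3 cells, as TPM ± SD (n = 2), IER2 was at 166 ± 1.66, SRF at 49.8 ± 2.26, IER5 at 26.3 ± 0.125, EGR1 at 25.0 ± 0.628, NR4A1 at 16.0 ± 2.04, IER3 at 8.70 ± 1.24, NR4A2 at 3.44 ± 1.42 and NR4A3 at 1.30 ± 0.248. In shControl cells IER2 was at 110 ± 8.98 TPM, SRF at 40.4 ± 0.706, IER5 at 25.4 ± 1.61, EGR1 at 14.8 ± 0.813, NR4A1 at 10.9 ± 0.475, IER3 at 7.75 ± 0.802, NR4A2 at 3.75 ± 0.0801 and NR4A3 at 0.632 ± 0.0914 (SD, n = 2). EGR3 and EGR2 came last in both groups, and in shCDK5RAP3 cells their values, 0.256 ± 0.298 and 0.0837 ± 0.118 TPM (SD, n = 2), lay within each other's spread. EGR1 and IER5, neighbours in this order, lay close together in shCDK5RAP3 cells and far apart in shControl cells. NR4A2 and NR4A3 were also neighbours, and their levels differed by more than the spread in both groups.

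The members' transcripts were compared by exon number and by letters of the 3′ UTR. IER3 and IER5 have 1 exon in the transcript with the longest 3′ UTR, EGR1, EGR2, EGR3 and IER2 have 2, and SRF and the NR4A genes have 7 to 9. The letters ATTTA, the core of the AU-rich elements that mark short-lived mRNAs, occurred in the longest annotated 3′ UTR of 9 members, all but IER2, and in 72.9% of 13560 tested protein-coding genes. Per kilobase IER3 had 6.64 and NR4A1 5.33, against a median of 1.63 over those genes, while EGR1 had 0.81 and IER2 had 0. Among the members that rose NR4A1 was highest and IER2 lowest, with NR4A3 at 3.31 and SRF at 1.29 between them. IER3 did not pass the test of expression, and the part of these letters in the rise was not tested. Of the proteins that bind such elements, 5 of 11 rose and 1 fell, or 45.5% and 9.09%, beside 19.7% and 21.8% of all tested genes. Their median log2 fold change was 0.10, with ZFP36 (0.75), ELAVL1 (0.52) and KHSRP (0.42) higher and ELAVL2 (-0.66) lower. ZFP36, which promotes decay, lost its call with DESeq2 (adjusted p = 0.0501), without a filter (edgeR adjusted p = 0.052), and without shCDK5RAP3 replicate 1 (edgeR adjusted p = 0.0574), shCDK5RAP3 replicate 2 (0.103) or shControl replicate 1 (0.0536). The number of higher calls in this list was 2 without either shCDK5RAP3 library and 3 without shControl replicate 1.

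Other early-response genes rose more often than they fell. Of 32 tested, 21 rose and 6 fell, or 65.6% and 18.8%, beside 19.7% and 21.8% of all tested genes. The median log2 fold change was 0.78. By size NPAS4 (2.74), an activity-dependent neuronal factor, FOSL1 (2.45), MYC (2.32) and the matricellular gene CCN1 (1.79) led. NPAS4 had 50 and 38 counts in shCDK5RAP3 cells, against 6 and 7 counts in shControl cells, and MYC had 36 and 30 counts in shCDK5RAP3 cells, against 6 and 7 counts in shControl cells. Leaving out shCDK5RAP3 replicate 1 put MYC at an edgeR adjusted p of 0.0517. Named after their values were seen, the AP-1 genes JUN (1.37) and FOS (1.43) rose, FOS with a log2 fold change of 0.81 and no call without shCDK5RAP3 replicate 1 (edgeR adjusted p = 0.212). With no filter FOS and SIK1 were not called (edgeR adjusted p = 0.151 for FOS and 0.0767 for SIK1). The 6 that fell, also named after the fact, were SIK1 (-0.93), BTG2 (-0.84), KLF10 (-0.84), FOSL2 (-0.77), TRIB1 (-0.45) and NFKBIA (-0.39), and SIK1, TRIB1 and NFKBIA were not called without shCDK5RAP3 replicate 2, which left 3. SIK1 and NFKBIA were not called when shCDK5RAP3 replicate 1 was left out either, nor was SIK1 without shControl replicate 2 or with DESeq2 (adjusted p = 0.0825). EGR4, the remaining EGR gene and also named after the fact, had 0 and 1 counts in shCDK5RAP3 cells, against 0 and 0 counts in shControl cells.

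Most of the cytoskeletal genes known as SRF targets rose. Of 19 tested, 14 rose and 0 fell by edgeR, or 73.7% higher, beside 19.7% of all tested genes. The median log2 fold change was 0.59. An unadjusted p under 0.05 was reached by 15, and DESeq2 and limma-trend also called 0 lower. TAGLN2 (-0.19), named after its value was seen, was called lower without shControl replicate 1, by library size only and with the replicate number as a block. The smooth-muscle actin ACTG2 (3.48) had 91 and 79 counts in shCDK5RAP3 cells, against 3 and 12 counts in shControl cells, and its value was 4.76 without shControl replicate 2 and 2.81 without shControl replicate 1. CCN2 (2.82) had 243 and 232 counts in shCDK5RAP3 cells, against 25 and 42 counts in shControl cells. ANKRD1 (2.68) and the actin-binding calponin CNN1 (2.40) followed, whereas the abundant cytoskeletal actins ACTB (0.31) and ACTG1 (0.22), named after their values were seen, rose little. Leaving out shCDK5RAP3 replicate 2 put ACTG1 at an edgeR adjusted p of 0.0873. CCN2 and ANKRD1 are also targets of the YAP coactivator. For comparison, the log2 fold change of the SRF transcript was 0.37.

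SRF's cofactors changed modestly. Of 7 tested, 3 rose and 0 fell by edgeR, or 42.9% higher, beside 19.7% of all tested genes. DESeq2 and limma-trend also called 0 lower, and an unadjusted p under 0.05 was reached by 3. The actin-regulated coactivator MRTFA (0.42) and the ERK-regulated ETS factors ELK3 (0.44) and ELK4 (0.60) rose, MRTFA with an edgeR adjusted p of 0.0569 once shCDK5RAP3 replicate 2 was left out. ELK1 (0.01), MRTFB (-0.02), FHL2 (-0.17) and SCAI (-0.17) did not pass. MYOCD, the cardiac and smooth-muscle coactivator, was not tested, with 6 and 5 counts in shCDK5RAP3 cells, against 0 and 0 counts in shControl cells.

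More genes of the ERK cascade fell than rose. Of 15 tested, 8 fell and 3 rose (median log2 fold change -0.30), or 53.3% lower and 20.0% higher. Among all tested genes 21.8% were lower and 19.7% higher. The RSK kinases RPS6KA2 (-1.44), RPS6KA3 (-1.27) and RPS6KA1 (-0.90), which ERK activates and which phosphorylate SRF, had the largest changes. RPS6KA2 averaged 31.0 ± 3.12 CPM in shCDK5RAP3 cells and 84.3 ± 8.19 CPM in shControl cells (SD, n = 2 each; edgeR adjusted p = 1.16e-05). Named after their values were seen, the ERK kinases' activators MAP2K1 (0.45) and MAP2K2 (0.29) were among the 3 that rose, MAP2K2 with an edgeR adjusted p of 0.0986 once shCDK5RAP3 replicate 2 was left out. The number called lower was 5 without either shCDK5RAP3 library, and the number called higher was 5 with the replicate number as a block.

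Genes of the CREB branch were called about as often as genes overall. Among 12 genes, 2 rose and 3 fell, or 16.7% and 25.0%, beside 19.7% and 21.8% of all tested genes, and the other 7 did not pass (median log2 fold change -0.09). The catalytic subunit PRKACB (-1.08) of protein kinase A and the CREB coactivator CRTC1 (-0.39) fell, and CRTC2 (0.50) and the CREB relative ATF1 (0.47) rose. CREB1 (-0.33), named after its value was seen, fell as well. The edgeR adjusted p of CRTC1 was 0.15 when shCDK5RAP3 replicate 1 was left out, 0.0553 when replicate 2 of that group was left out and 0.0838 with no filter. That of ATF1 was 0.0964 when shCDK5RAP3 replicate 2 was left out and 0.0633 with no filter. The list had 1 higher call without shCDK5RAP3 replicate 2, and 1 lower call without either shCDK5RAP3 library. Leaving out shCDK5RAP3 replicate 1 put CREB1 at an edgeR adjusted p of 0.0717, and leaving out shCDK5RAP3 replicate 2 put it at 0.0722.

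The direct partners of the EGR and NR4A proteins did not pass. Of 4 tested, 0 rose and 0 fell by edgeR, DESeq2 or limma-trend, and 1 had an unadjusted p under 0.05. The EGR corepressors NAB1 (-0.18) and NAB2 (0.09) and the NR4A heterodimer partners RXRA (-0.15) and RXRB (-0.05) moved little. NAB1 had an edgeR adjusted p of 0.059, passed by library size (0.0357) and passed with the replicate number as a block (0.0236).

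**Figure D4:**
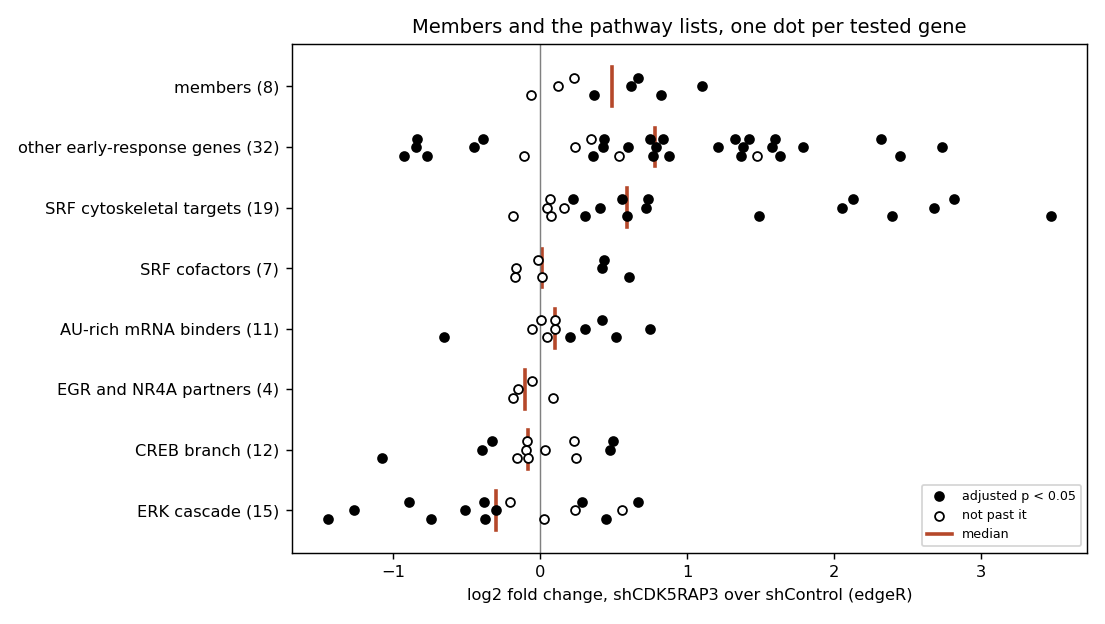
Log2 fold change (shCDK5RAP3 over shControl, edgeR) of the 8 tested members and of the tested genes of 7 pathway lists, 1 dot per gene, filled where the adjusted p is under 0.05, with a bar at each median. The early-response genes and SRF's cytoskeletal targets have medians of 0.78 and 0.59, and the ERK cascade has a median of -0.30.

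Over the 4 libraries, the profiles nearest to that of EGR1 among 12669 genes were those of DDX41, a helicase that senses DNA, ZNF93, a zinc-finger repressor, and HSP90AA2P, a pseudogene of HSP90. Their distances in centred log2 CPM were 0.0277, 0.0372 and 0.043. As 294 genes lay within a distance of 0.2, nearness to EGR1 picks out no small set here, and reads of HSP90AA2P cannot be told with certainty from those of its parent gene.

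Other cell types' markers were scarce, fibroblast genes apart. By edgeR, DESeq2 or limma-trend 0 of 3 leukocyte markers were called, with an unadjusted p under 0.05 for 1, PTPRC (-1.23), which was called lower without shCDK5RAP3 replicate 1 (edgeR adjusted p = 0.0175) and with the replicate number as a block (0.0171). The leukocyte list summed to 2.84 and 1.79 CPM in shCDK5RAP3 cells, against 3.18 and 3.92 CPM in shControl cells, with CD3E at 0 in all libraries. The endothelial list had 1 fall of 2 tested, CDH5, with 0 and 0 counts in shCDK5RAP3 cells, against 17 and 11 counts in shControl cells, and it lost its call when shCDK5RAP3 replicate 2 was left out (edgeR adjusted p = 0.05) and was too low to test when shControl replicate 1 was. The epithelial list had 2 falls of 3 tested (KRT19 at -2.07 and EPCAM at -0.88, which was not called when shCDK5RAP3 replicate 1 was left out), with CDH1 at 0 throughout. With no filter neither was called (edgeR adjusted p = 0.071 for KRT19 and 0.0696 for EPCAM), nor was CDH5 (0.0524). The Schwann cell list had 1 fall of 2 tested, S100B (-2.17), with SOX10 at 0 throughout. The fibroblast list had 4 falls of 6 tested, or 66.7%, beside 21.8% of all tested genes. These falls were led by PDGFRB (-2.32), DCN (-1.73) and LUM (-1.21). Their number was 3 with DESeq2 and 6 by library size only. The fibroblast list summed to 242 and 222 CPM in shCDK5RAP3 cells, against 559 and 532 CPM in shControl cells. The endothelial, epithelial and Schwann lists summed to at most 2.00, 7.46 and 3.84 CPM in any library. No marker of these 5 lists was called higher by edgeR, DESeq2 or limma-trend, and the part of the falling markers in the rise of the members was not tested.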

How the data were processed

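The authors deposited whole-number read counts per Ensembl gene for 4 RNA-seq libraries, in 1 table. The tools listed per the submitters' processing notes are HISAT2 2.2.0 and StringTie, with the build hg38; the counter and its strand setting are not stated. Because the counts are raw, no normalization had been applied to them. Symbols, exon lengths and UTRs came from GENCODE 29, which matched 56591 of the 64252 IDs.

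Genes passing edgeR's filterByExpr (18775) were fitted with edgeR 4.0.16 (R 4.3.3): TMM scaling, quasi-likelihood test of shCDK5RAP3 over shControl, p-values adjusted by Benjamini-Hochberg across the whole table of tested genes, called under 0.05. SE is the log2 fold change divided by the root of F. CPM used TMM-scaled library sizes. The fit was tested on simulated counts with changes planted in 200 genes. It called 14 of 50 genes at a planted log2 change of 0.5, and 48 of 50 at -1. At 1 and at -2 it called 50 of 50, and with no planted change 10 of 18181. Changes were planted in 200 of 18381 genes, whereas 41.5% of tested genes were called in the data. Whether these rates carry over to the data was not tested. At this depth a count of 0 allows 3 counts, and Poisson 95% intervals cover counting error only.

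All 10 members were named, with 4 genes of each list by size of change and the 3 profiles nearest to EGR1; others are marked as chosen after their values were seen. The members and lists were chosen with earlier results of these data known. Alternatives were DESeq2 1.42.0, limma-trend (limma 3.58.1), other scalings, filters and thresholds, robust estimates, rows summed by symbol, a replicate block, and each library left out. RefSeq windows (GRCh38.p14) for EGR3, IER3 and NR4A2 were not used here, and a few genes of the lists are counted but not reported here by name.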

Additional observations from a re-analysis of the deposited data

How the results depend on the processing

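EGR1, IER2, SRF and NR4A1 kept their direction and their call in all 15 alternatives, and NR4A3 lost its call in 4: without a filter, without either shCDK5RAP3 library and at a threshold of 0.01. With 1 library left out, log2 fold changes ran from 0.76 to 0.88 for EGR1 and 0.58 to 0.75 for IER2. They ran from 0.35 to 0.38 for SRF and 0.52 to 0.71 for NR4A1. In such fits the lone library is assumed to vary like the others. With all 4 libraries, 47 genes of the 7 pathway lists were called higher and 18 lower. Over all genes, 3704 were higher and 4088 lower, against 1966 and 2522 without a filter; 2421 were higher at a threshold of 0.01, and leaving out 1 library gave 1556 to 3516 higher and 2196 to 3813 lower. Of the 7 pathway lists 18 genes fell, and 10 to 18 did so with 1 library left out (11 without shCDK5RAP3 replicate 1, 10 without shCDK5RAP3 replicate 2).

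Same-numbered libraries did not deviate together (r = 0.0534 over 18775 genes, 2 pairs), so the numbers were not taken as pairs; with the replicate number as a block 4430 genes were higher and 4718 lower, and the members' 5 calls stood.

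Among the named genes, signs turned only for ones that were not called. With shCDK5RAP3 replicates 1 and 2 left out in turn, the log2 fold change was -0.51 and 0.28 for NR4A2, -0.80 and 0.15 for KRT8, 0.53 and -0.12 for VWF, and 0.15 and -0.29 for RXRB. Over all 4 libraries left out in turn it ran from -0.175 to 0.16 for MRTFB (0.06 without shCDK5RAP3 replicate 2) and from -0.31 to 0.076 for CD68; RXRB was at 0.07 without shControl replicate 2. MRTFB was at 0.016 with upper-quartile scaling and ELK1 at -0.014 by library size only. The cause was not tested. Other scalings moved the median of all genes by under 0.1. EGR2 and EGR3 were too low to pass the filter of the main fit, and neither was called without a filter.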
